A study of Mus musculus with 6 samples.

Results

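Condensin is the protein complex that folds chromatin into compact mitotic chromosomes, and its 8 subunit genes in the mouse (Smc2, Smc4, Ncapd2, Ncapg, Ncaph, Ncapd3, Ncapg2 and Ncaph2) are described here in embryonic hearts with and without an endothelial deletion of Ino80. The 8 genes were found by symbol in a table of 45792 genes, and all 8 were among the 17125 genes with enough counts to be tested. They were chosen by membership of the complex, but with the mutant-against-control values of these same hearts already known. Their differences between the groups are therefore given as a description. Intervals and calls from the fits over all genes are printed beside them, and nothing is concluded from these. Whole hearts were collected at embryonic day 13.5 from 3 control embryos and 3 Tie2Cre;Ino80 fl/fl embryos, and their RNA was sequenced one library per heart. Ino80 encodes the ATPase of the INO80 chromatin remodelling complex. Tie2Cre expresses the Cre recombinase in endothelial and endocardial cells and their descendants, so cardiomyocytes were to keep the gene. The sample labels call the controls wild-type on a C57BL/6 background, whereas the study's methods count as controls every genotype other than Tie2Cre;Ino80 fl/fl and describe mixed backgrounds, so whether the control hearts carried floxed alleles or the transgene cannot be told from these sources.

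Condensin comes in 2 forms, which share a core made of the SMC ATPases SMC2 and SMC4. SMC proteins are long coiled-coil molecules that pair at a hinge and enclose DNA, and they extrude it into loops at the expense of ATP. Condensin I adds the kleisin NCAPH, which bridges the ATPase heads, and the HEAT-repeat proteins NCAPD2 and NCAPG. Condensin II adds the related NCAPH2, NCAPD3 and NCAPG2. Condensin II is nuclear throughout the cell cycle and begins compaction in prophase, while condensin I is largely cytoplasmic until the nuclear envelope breaks down. Dividing cells of the growing embryonic heart, cardiomyocytes included, need both forms to separate their chromosomes. Their RNAs are higher in cycling than in resting cells.

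The depth ranged from 28948836 to 89675692 counts per heart, the deepest being mutant replicate 1. Ino80 counts did not separate the genotypes, at 30.2, 31.6 and 32.7 CPM (counts scaled to a common library total) in control replicates 1 to 3 and 36.5, 33.7 and 31.8 CPM in mutant replicates 1 to 3, so the hearts are called control-labelled and mutant-labelled. A whole heart holds many cells outside the Tie2Cre lineage, and the counts are summed over the gene, deleted exon included. By quantitative PCR, the study reported Ino80 mRNA as undetectable in endothelial cells isolated from Tie2Cre;Ino80 fl/fl hearts, a measure separate from these libraries. Cardiomyocyte markers were plentiful, with 18550 to 23390 CPM summed over 8 genes in control-labelled hearts and 19070 to 19830 CPM in mutant-labelled hearts. Of the summed levels of 8 marker lists, those of cardiomyocyte, endothelial (788.5 to 996.3 against 896.8 to 954.3 CPM), smooth muscle and pericyte (1348 to 1599 against 1256 to 1470 CPM), macrophage (33.2 to 47.0 against 46.5 to 46.8 CPM) and neural crest genes (4.28 to 6.06 against 3.93 to 6.02 CPM) overlapped between the groups. Acta2 carried most of the smooth muscle and pericyte sum, and the mean log2 of that list did not overlap, at 5.91 to 6.39 in control-labelled and 5.61 to 5.76 in mutant-labelled hearts. Rgs5, a pericyte marker, had 44.2, 99.95 and 100.8 CPM in control-labelled hearts and 12.8, 11.1 and 16.1 CPM in mutant-labelled hearts, a log2 fold change of -2.63 (edgeR adjusted p = 0.0645, DESeq2 adjusted p = 3.07e-08), and Myh11, the smooth muscle myosin, had -2.40 with overlap. The erythroid sum was higher in every mutant-labelled heart (142.9 to 535.2 against 916.8 to 1345 CPM) because of 2 of its 8 genes, the embryonic globins Hbb-y and Hba-x. The epicardial sum was also higher (157 to 161.6 against 165.9 to 186.4 CPM), while 3 of the 6 epicardial genes were higher and 3 lower. Among 4 liver genes only Ttr had enough counts to be tested, at 0.289 to 0.494 CPM against 0.188 to 0.239 CPM, and Alb, Afp and Apoa1 had at most 24 counts in any heart. The part of these marker differences in the condensin values was not tested. In bulk RNA, a larger share of dividing cells and more RNA per cell cannot be told apart.

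The 8 genes lie on 8 chromosomes of GRCm38. Smc2 is at chr4:52439243-52488260 and Smc4 at chr3:69004738-69034623, both on the forward strand. Of the condensin I genes, Ncapd2 is at chr6:125168007-125191701 on the reverse strand, Ncapg at chr5:45669919-45700546 on the forward strand and Ncaph at chr2:127103809-127133954 on the reverse strand. The condensin II genes are all on the forward strand, Ncapd3 at chr9:27030175-27095315, Ncapg2 at chr12:116405402-116463731 and Ncaph2 at chr15:89355719-89372826. Ncaph2 shares 829 of its 4198 exonic bases with Sco2 and 535 with Tymp, both on the opposite strand, and Ncapg shares 944 of 7066 with Lcorl, also on the opposite strand. Ncapd2 shares 237 of its 6267 exonic bases with the small RNA gene Scarna10 and 235 with the gene Gm28967, both on the same strand. Sco2, Scarna10 and Gm28967 had 0 counts in every heart, so none of the reads over the shared bases were credited to them. Whether reads over those bases were counted for the condensin gene depends on the counting mode and strand, which the sources used here do not name.

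Genes used late in the cell cycle often carry a CHR element (cell cycle genes homology region, TTTGAA or TTCGAA) close to the start, which the DREAM and MuvB complexes bind. E2F factors bind sites such as TTCCCGC or TTGGCGC. These words were searched on both strands of the RefSeq promoters (GRCm38.p6, 250 bases before to 50 after a start), in which 7 of the 8 genes have an entry. Smc4 has none. The windows around the CHR words are shown because the word recurs across both condensins, with the word in capitals, each read 5′ to 3′ along the strand of the gene.
Smc2: tcgctttccatgTTCAAAacggtatagtct
Smc2, second match: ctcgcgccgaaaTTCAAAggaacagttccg
Ncapd2: cagccgttgaggTTTGAAcagggaattgcg
Ncapg: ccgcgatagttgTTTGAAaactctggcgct
Ncapg2: tacgcgggtgtgTTTGAAtctggtccgagc
Ncaph2: cttctttacttcTTCGAAactgggcccgcc
They lie at chr4:52439064-52439093 and chr4:52439235-52439264 (forward strand), chr6:125191692-125191721 (reverse), chr5:45669883-45669912, chr12:116405406-116405435 and chr15:89355685-89355714 (forward). TTCAAA in Smc2 is the reverse complement of TTTGAA.

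A CHR word was found in 6 of the 7 genes, while 19.2% of all 32851 promoters, and 21.7% of the 27025 genes with a promoter, held one. Ncaph had none, and the match of Ncapd3 was in an alternative promoter far inside the gene. In Ncapd2 the word lay 8 bases before the nearest protein-coding start in GENCODE, in Ncaph2 22 bases and in Ncapg 24 bases before it. In Smc2 the first match began 167 bases before the nearest such start and the second 4 bases after it. The word of Ncapg2 began 3 bases after a protein-coding start and 3 bases before the next. An E2F word was found in 5 of the 7 genes (Ncapd2, Ncapg, Ncaph, Ncapd3 and Ncapg2), against 7.79% of all genes. The following windows show those of Ncapd2, Ncaph and Ncapg2, with the E2F word in capitals.
Ncapd2: catctcgttgtTTGGCGCgtatcctgccc
Ncaph: ggttaccgcgcTTGGCGCtc
Ncapg2: ctggtccgagcGCGGGAAactatgggtct
They lie at chr6:125191576-125191604 (reverse strand), chr2:127133905-127133924 (reverse) and chr12:116405425-116405453 (forward), and GCGGGAA is the reverse complement of TTCCCGC. The CCAAT word, which NF-Y binds, was found in 3 of the 7 (Smc2, Ncapd2 and Ncapg), close to its share of 41.1% over all genes. Of a fixed list of other G2/M genes, 30 of 40 held a CHR word and 30 of 40 a CCAAT word, but 4 of 40 an E2F word. Of 10 cohesin genes with an entry, 5 held a CHR word and 5 an E2F word. A match is a description of the letters and does not show that a factor binds there.

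Within the hearts the subunits were present at very different levels. Levels between genes were compared as CPM per kilobase of exon, a scale that corrects for gene length. Smc4 was the most abundant, at 50.1 ± 4.48 CPM per kb (SD, n = 6 hearts), and Smc2 stood at 24.4 ± 2.17. Ncapd2, at 21.8 ± 4.13, and Ncaph, at 11.3 ± 0.577, led condensin I, with Ncapg at 6.66 ± 0.433. In condensin II, Ncaph2 stood apart at 27.2 ± 2.58, a value that may include or miss reads over bases shared with Sco2 and Tymp. Ncapg2 stood at 5.42 ± 0.465 and Ncapd3 at 5.26 ± 0.146. By these means the SMC core and the kleisin of condensin II were above the other subunits, and 3 pairs of neighbours in the order were not separated in every heart. Ncaph2 was above Smc2 in 5 of 6 hearts, Smc2 above Ncapd2 in 4 and Ncapg2 above Ncapd3 in 3. Ncapd2 was the higher of that pair in mutant replicates 1 and 3, and by the longest transcript its mean over 6 hearts, 29.5, was above the 24.7 of Smc2. The other neighbours kept their order in 6 of 6 hearts. Among all genes with a length, the 8 ranged from percentile 55.4 (Ncapd3) to percentile 93.2 (Smc4) on this scale.

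**Figure D1:**
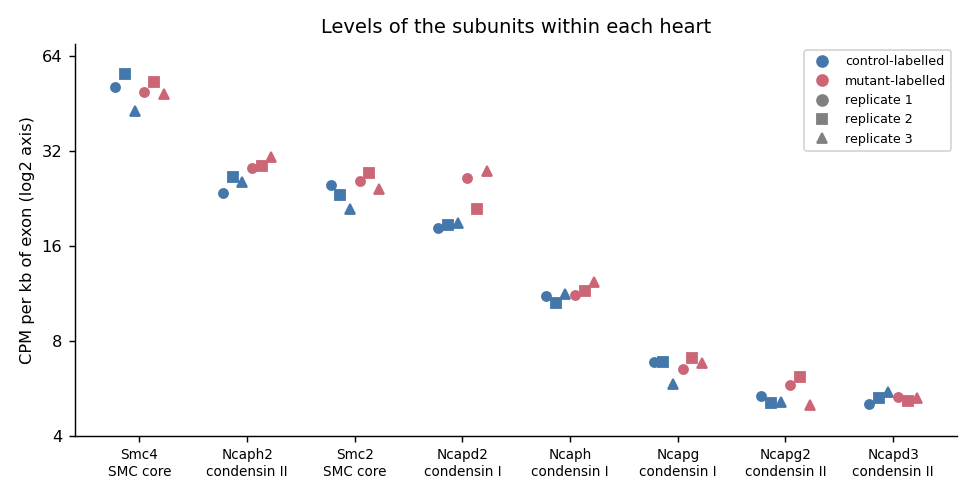
Level of each condensin subunit in each heart, in CPM per kilobase of exon on a log2 axis, ordered by the mean over 6 hearts. Blue points are control-labelled and red points mutant-labelled hearts, and the marker shape gives the replicate. Smc4 is the highest in every heart, and Ncapg2 and Ncapd3 overlap at about the same level.

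These level comparisons were made within each heart and not between the genotypes, so they could be tested, although their means pool both groups. Each was an exact two-sided sign-flip permutation test over the 6 hearts, whose smallest possible p is 0.0312, and the 5 tests were adjusted together. The p covers the spread between hearts, and not the choice of gene length or the counting of reads over bases shared with other genes. Ncaph2 shares 829 of its 4198 exonic bases with Sco2 and 535 with Tymp, while Ncaph shares none. Condensin I genes were higher than condensin II genes, as means of log2 CPM per kb of 3 genes each, by 0.36 ± 0.085 (SD, n = 6), a 1.28-fold difference seen in 6 of 6 hearts (exact p = 0.0312, adjusted p = 0.0312). That average hid opposite orders of the paired subunits. Between the HEAT-repeat subunits, Ncapd2 exceeded Ncapd3 by 4.09-fold (log2 difference 2.03 ± 0.262, 6 of 6 hearts, exact p = 0.0312, adjusted p = 0.0312). Between the kleisins the order was turned, with Ncaph at 0.417 times Ncaph2 (log2 difference -1.26 ± 0.106, lower in 6 of 6 hearts, exact p = 0.0312, adjusted p = 0.0312). Between the other pair of HEAT-repeat subunits, Ncapg exceeded Ncapg2 by 1.23-fold (0.30 ± 0.126, 6 of 6 hearts, exact p = 0.0312, adjusted p = 0.0312), a difference that depended on the length used. By the longest transcript it was 0.04, and by the coding length -0.01. In the core, Smc4 exceeded Smc2 by 2.06-fold (1.04 ± 0.122, 6 of 6 hearts, exact p = 0.0312, adjusted p = 0.0312). By coding length the condensin I over condensin II difference was 0.10, still in 6 of 6 hearts. In control-labelled hearts alone the differences per exonic length kept their directions. They were 0.317 for condensin I over condensin II, 1.822 for Ncapd2 over Ncapd3 and 0.324 for Ncapg over Ncapg2. Ncaph over Ncaph2 was -1.196 and Smc4 over Smc2 was 1.116. In mutant-labelled hearts Ncapd2 over Ncapd3 was 2.244.

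Set beside the other SMC complexes per kilobase of exonic length, both condensin ATPases had higher means than the other SMC ATPases. Cohesin, the complex that holds sister chromatids together, has the ATPases Smc1a (21.7 ± 2.15 CPM per kb) and Smc3 (21.2 ± 0.955), which lay a little below Smc2. The ATPases of the SMC5/6 complex, which acts in DNA repair, were lower on this scale, with Smc5 at 8.80 ± 0.312 and Smc6 at 11.2 ± 1.02. The place of Smc2 above Smc1a and Smc6 depends on the length used. Smc6 has 12502 exonic bases but 5603 in its longest transcript, Smc1a has 5769 and 4691, and Smc2 has 5478 and 5404. Levels by other lengths were not compared for the genes outside condensin. Top2a, the mitotic topoisomerase that works beside condensin on chromosome axes, stood at 40.7 ± 3.05, below Smc4 on this scale. That order also depends on the length used. Top2a has 9013 exonic bases but 5221 in its longest transcript, and Smc4 has 5210 and 4316. The proliferation marker Mki67 stood at 25.4 ± 1.07.

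Between the labelled groups the 8 subunits differed by unequal amounts. Of the 8 genes, Ncapd2 of condensin I and Ncaph2 of condensin II had no overlap between the groups, both being higher in every mutant-labelled heart. Over all tested genes, 14.3% were likewise higher in every mutant-labelled heart. The other 6 members overlapped. The fitted log2 fold change was above 0 for 7 of the 8 genes, as it was for 49.7% of all tested genes. The median over the 8 was 0.11, beside -0.00 over all tested genes, whose quartiles were -0.17 and 0.16.

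In the SMC core, Smc2 had 136.4, 126.8 and 114.5 CPM in control-labelled replicates 1 to 3 and 140.9, 148.9 and 133 CPM in mutant-labelled replicates 1 to 3. The groups overlapped, since mutant replicate 3 was below control replicate 1. The means were 125.9 ± 10.99 and 140.9 ± 7.97 CPM (SD, n = 3 each), a log2 fold change of 0.16 with a standard error of 0.085. Smc4, its partner at the hinge, had 265.4, 292.2 and 223.7 CPM in control-labelled hearts and 256.2, 276.8 and 252.7 CPM in mutant-labelled hearts. Its control-labelled hearts held both the highest and the lowest value of the 6. The log2 fold change was 0.01 with a standard error of 0.106 and a 95% interval from -0.24 to 0.25.

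In condensin I, Ncapd2, whose product is one of the HEAT-repeat subunits, had 114.3, 117 and 119 CPM in control-labelled hearts. In mutant-labelled hearts it had 164.8, 131.7 and 173.2 CPM. The control-labelled hearts were close together, and mutant replicate 2 lay between them and the other mutant-labelled hearts. The means were 116.7 ± 2.33 and 156.6 ± 21.9 CPM, 34.1% higher, with a log2 fold change of 0.42 (standard error 0.104, 95% interval 0.19 to 0.66). Over all tested genes, 8.53% had a larger log2 fold change. Without mutant replicate 2 the log2 fold change was 0.53, and without mutant replicate 3 it was 0.35.

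The other condensin I genes differed less. Ncapg, the second HEAT-repeat subunit, had 48.3, 48.4 and 41.3 CPM in control-labelled hearts and 46.2, 50.0 and 48.1 CPM in mutant-labelled hearts. Its control replicate 3 was the lowest of the 6, and the rest lay within a narrow band. The log2 fold change was 0.06 with a standard error of 0.086. Ncaph, the kleisin, had 47.7, 45.5 and 48.7 CPM in control-labelled hearts and 48.3, 49.5 and 53.0 CPM in mutant-labelled hearts. The lowest mutant-labelled heart was below the highest control-labelled one, so the groups overlapped. The log2 fold change was 0.09 with a standard error of 0.073. Relative to the mean of Ncapg and Ncaph in the same heart, Ncapd2 stood at a ratio of 2.38, 2.49 and 2.65 in control-labelled hearts and 3.49, 2.65 and 3.43 in mutant-labelled hearts. The ratio of mutant replicate 2 was the same as that of control replicate 3 to 3 digits.

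In condensin II, Ncaph2, its kleisin, had 98.6, 111.3 and 107.2 CPM in control-labelled hearts and 119.1, 120.5 and 129 CPM in mutant-labelled hearts. The groups did not overlap. The means were 105.7 ± 6.45 and 122.9 ± 5.39 CPM, 16.3% higher, with a log2 fold change of 0.22 (standard error 0.072, 95% interval 0.05 to 0.38). Ncaph2 is also the member with the largest share of exonic bases in other genes. Sco2, which shares 829 of the 4198 exonic bases of Ncaph2, had 0 counts in every heart. Tymp, which shares 535, had 19 to 78 counts per heart. Whether reads over the shared bases entered the Ncaph2 values cannot be told from these counts.

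The other condensin II genes overlapped between the groups. Ncapg2 had 53.3, 50.5 and 51.0 CPM in control-labelled hearts and 57.7, 61.3 and 49.7 CPM in mutant-labelled hearts. Mutant replicate 3 was the lowest of all 6 hearts and mutant replicate 2 the highest. The log2 fold change was 0.12 with a standard error of 0.089. Ncapd3, a HEAT-repeat subunit, had 39.9, 41.6 and 43.3 CPM in control-labelled hearts and 41.8, 40.7 and 41.5 CPM in mutant-labelled hearts. All mutant-labelled values lay inside the range of the control-labelled ones. The log2 fold change was -0.01 with a standard error of 0.071 and a 95% interval from -0.17 to 0.15.

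**Figure D2:**
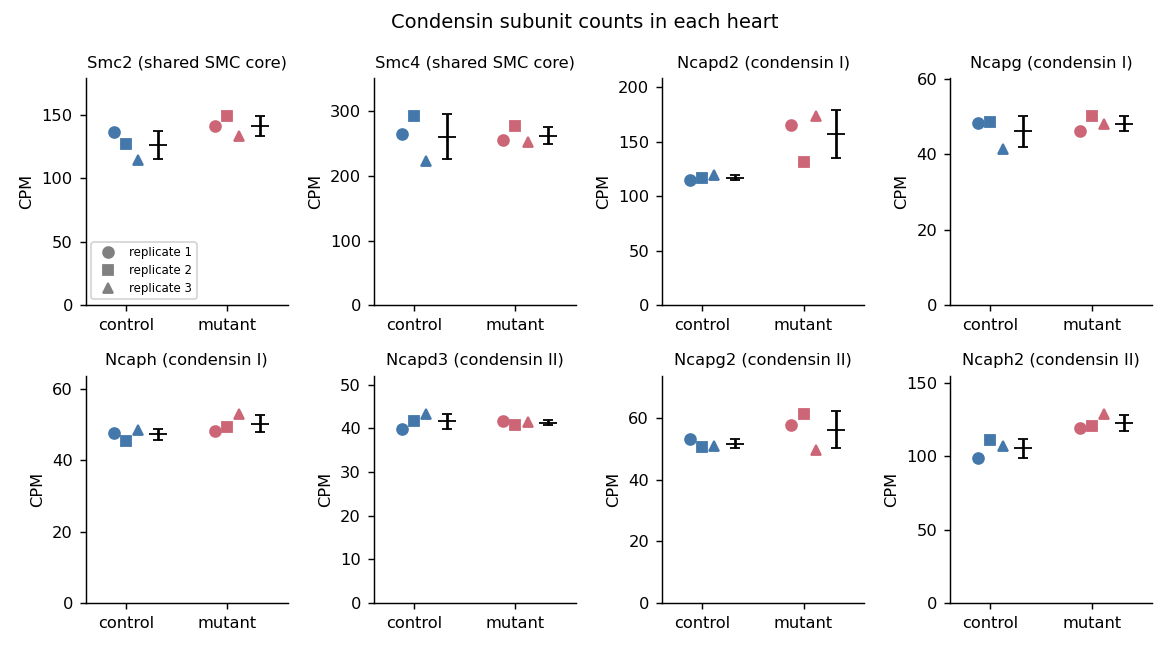
CPM of each condensin gene in each heart, control-labelled in blue and mutant-labelled in red, with the marker shape giving the replicate and black bars the mean ± SD of 3 hearts. Each axis starts at 0 and has its own scale. Ncapd2 and Ncaph2 are higher in every mutant-labelled heart, and the other 6 genes overlap.

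**Figure D3:**
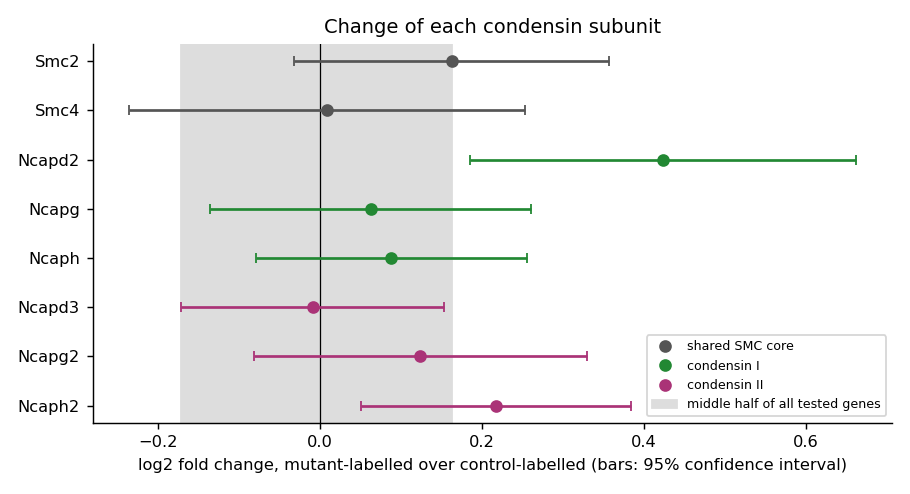
Log2 fold change, mutant-labelled over control-labelled, of each condensin gene with its 95% confidence interval, coloured by subcomplex. The grey band holds the middle 50% of all tested genes, from -0.17 to 0.16. The highest values are those of Ncapd2, at 0.42, and Ncaph2, at 0.22.

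Calls over the whole table frame these values. With edgeR's quasi-likelihood test at an adjusted p of 0.05, 0 of 17125 genes were called higher (0%) and 0 lower (0%), and so 0 of the 8 members. Before adjustment, p under 0.05 was reached in the upward direction by 9.48% of genes and in the downward direction by 9.98%, with 2 members among the former (Ncapd2 and Ncaph2) and 0 among the latter. With DESeq2 and its adjusted p, 2.58% of genes passed upward, 1 member (Ncapd2) among them, and 3.16% passed downward, with 0 members. Groups did not overlap for 14.3% of genes in the direction of mutant-labelled hearts and for 12.8% in the other direction, against 2 and 0 of the 8 members. As the genes were put forward with this contrast known, nothing is read from these counts or from the intervals of single members.

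Averaged over all 8 genes, the mean log2 CPM was 6.35, 6.37 and 6.30 in control-labelled hearts and 6.47, 6.48 and 6.48 in mutant-labelled hearts, a difference of 0.135 without overlap. Averaged by part, the core overlapped between the groups while condensin I and condensin II did not. The SMC core, as mean log2 CPM of Smc2 and Smc4, was 7.57, 7.59 and 7.32 in control-labelled and 7.57, 7.67 and 7.52 in mutant-labelled hearts, and the groups overlapped, with control replicates 1 and 2 above mutant replicates 1 and 3 and control replicate 3 the lowest of all. Condensin I was 6.00, 5.99 and 5.96 against 6.16, 6.11 and 6.25, a difference of 0.19. Condensin II was 5.89, 5.95 and 5.95 against 6.04, 6.07 and 6.01, a difference of 0.11. Each of the condensin I and condensin II averages has 1 gene, Ncapd2 or Ncaph2, that did not overlap and 2 that did. Averages of related gene lists described below, as mean log2(CPM + 1), also lacked overlap in part. Control- against mutant-labelled hearts had 6.193 to 6.299 against 6.317 to 6.386 for the G2/M list and 5.758 to 5.879 against 5.926 to 6.019 for condensin regulators. Mitotic chromosome partners had 7.134 to 7.225 against 7.24 to 7.281. Cohesin and SMC5/6 averages overlapped. The condensin I minus condensin II difference within a heart overlapped, at 0.11, 0.05 and 0.01 against 0.12, 0.04 and 0.24. The medians of the fitted log2 fold changes were 0.09 for the core, 0.09 for condensin I and 0.12 for condensin II. Without mutant replicate 2 the condensin II median was 0.06, and without mutant replicate 3 it was 0.19. The core median was 0.01 without control replicate 3, 0.04 without mutant replicate 2 and 0.14 without control replicate 2.

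**Figure D4:**
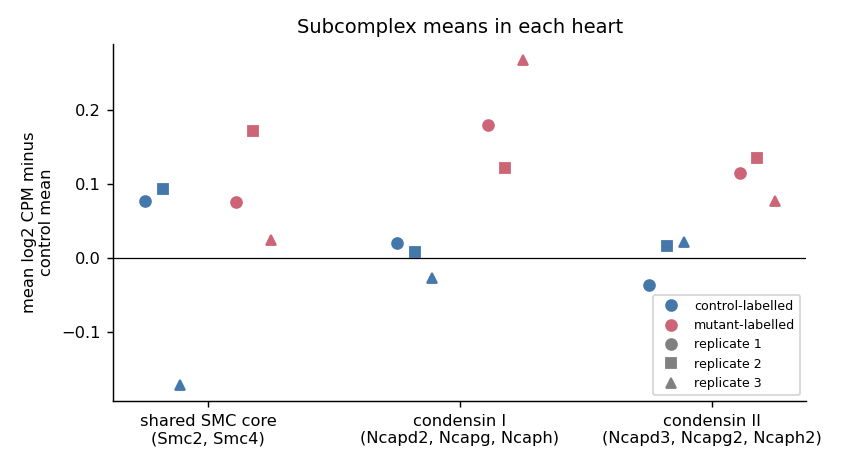
Mean log2 CPM over the subunits of each part of condensin in each heart, after subtracting the mean of the 3 control-labelled hearts. Blue points are control-labelled and red points mutant-labelled hearts, and marker shapes give the replicate. The core overlaps between groups, with control replicate 3 lowest, while all mutant-labelled hearts lie above the control-labelled ones for condensin I and condensin II.

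Within the groups the correlations of members with one another had mixed signs. Deviations of each gene from its own group's mean were compared over the 6 hearts with the mean deviation of the other 7 members, as Pearson's r. The r was positive for Smc4 (0.73), Ncapg (0.81) and Smc2 (0.28). It was negative for Ncapd2 (-0.64), Ncaph (-0.63), Ncapd3 (-0.78), Ncapg2 (-0.41) and Ncaph2 (-0.28). With so few hearts these values are imprecise, and none was tested. The mean deviation over members was small, from -0.045 to 0.032 on the log2 scale, so the order of the hearts rests on small differences. The SD within groups ran from 0.043 for Ncapd3 to 0.149 for Ncapd2. Of 14627 genes with a mean of at least 1 CPM, the 5 whose deviations were most like the members' mean were Hdgfrp3 (r = 0.9996), Rad17 (0.9988), Lrr1 (0.9988), Senp2 (0.9981) and Lyrm2 (0.9978). With 6 hearts and 2 group means taken off, very high values of r are found among so many genes, and no relation is drawn from them.

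Genes that work with condensin were taken from lists compiled from general knowledge, with earlier results of these data known. Of 9 regulators, which include the mitotic kinases and the chromosomal passenger complex that phosphorylate or recruit condensin, 9 had a log2 fold change above 0 and 0 below, with a median of 0.18. By edgeR 4 of them were higher at an unadjusted p under 0.05 and 0 at the adjusted threshold, while DESeq2 called 2 higher (Plk1 and Incenp). Plk1, the Polo-like kinase that phosphorylates condensin subunits, had 54.6 ± 3.02 CPM in control-labelled and 70.1 ± 4.45 CPM in mutant-labelled hearts, a log2 fold change of 0.36, and its groups did not overlap. Incenp, the scaffold of the passenger complex, had a log2 fold change of 0.30, also without overlap. At the other end, Mcph1, which holds condensin II back before mitosis, stood at 0.01, and its groups overlapped.

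Another 5 genes act with condensin on mitotic chromosomes. Kif22, a chromosome-bound kinesin, had a log2 fold change of 0.25 without overlap and was higher by edgeR at an unadjusted p under 0.05, whereas 0 of the 5 were called by edgeR or DESeq2 after adjustment. Top2a stood at 0.15, Kif4, the kinesin that shapes the chromosome axis with condensin, at 0.08, and Mki67 at 0.04. Top2b, the paralog of Top2a, stood at -0.11. These 4 overlapped between the groups.

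The other SMC complexes had medians close to that of all genes. Of 15 cohesin genes, 5 had values above 0 and 10 below, with a median of -0.03, and edgeR's unadjusted p was under 0.05 for 2 higher and 1 lower. Smc1a, a cohesin ATPase, went from 114.8 ± 6.12 to 135.5 ± 5.12 CPM, a log2 fold change of 0.24 without overlap, and Cdca5, which stabilizes cohesin on chromatin, stood at 0.21. Wapl, which releases cohesin, stood at -0.16 and the acetyltransferase gene Esco1 at -0.20, both lower in every mutant-labelled heart. Of 8 SMC5/6 genes, 4 were above 0 and 4 below, with a median of 0.00 and values from -0.12 (Smc6) and -0.06 (Slf1) to 0.07 (Slf2) and 0.09 (Nsmce3), and all 8 overlapped between the groups. Neither list had a gene called after adjustment by edgeR or DESeq2.

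Of 45 other genes of the G2/M phase, 34 had values above 0 and 11 below, with a median of 0.095 beside 0.106 for the condensin genes. Without adjustment edgeR's p was under 0.05 for 11 of the upper and 0 of the lower ones, and for 0 after adjustment, while DESeq2 called 3, all higher. Hjurp, the chaperone of the centromeric histone, had the largest log2 fold change, 0.40, but its groups overlapped. Cdca3, which takes part in mitotic entry, went from 49.6 ± 1.77 to 62.4 ± 3.24 CPM, a log2 fold change of 0.33 without overlap. Jpt1 stood at -0.10 and Ckap2, a spindle protein, at -0.13, both with overlap. The difference between the medians of the condensin genes and of the G2/M list was not tested.

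**Figure D5:**
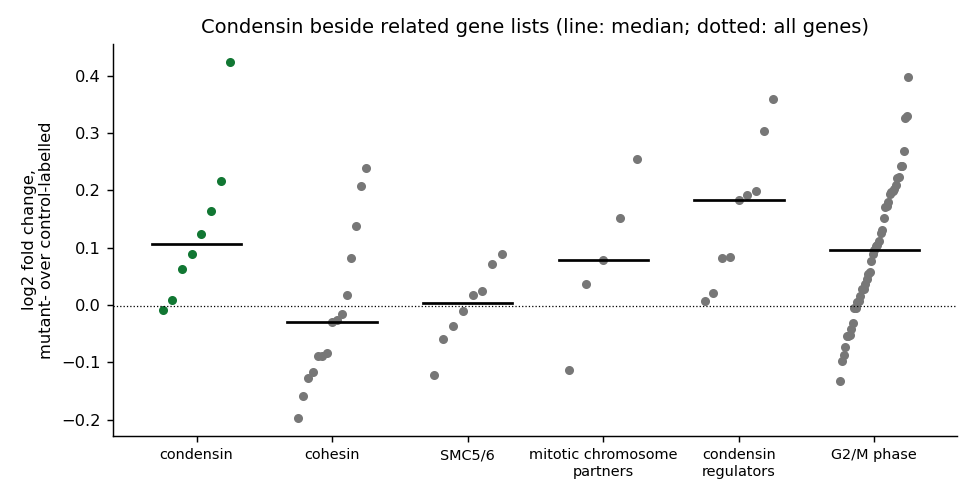
Log2 fold change, mutant-labelled over control-labelled, of each gene of condensin (green) and of 5 related lists (grey), with black lines at the medians and a dotted line at the median of all tested genes. Ncapd2 is the highest point of the condensin genes, at 0.42, and the 9 regulators all lie above 0.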

How the data were processed

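RNA from 6 whole hearts was sequenced by the authors as 76 bp paired-end reads, mapped to GRCm38 with STAR 2.4.2a and the GENCODE vM6 annotation, and counted per gene with summarizeOverlaps. The deposited counts are raw. The counting mode and the use of strand are not given in the sources used here. A second deposited table holds the authors' mean normalized signal per gene and their fold changes and p-values from DESeq2, and its gene symbols were used, joined by gene identifier. Its mean signal was copied for the members but enters no result, and its fold changes and p-values were not used. Columns were matched to samples by title.

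Counts were fitted with edgeR 4.0.16 (R 4.3.3, limma 3.58.1) by quasi-likelihood, with filterByExpr (minimum count 10, minimum total 15), TMM scaling and group as the only term. P-values were adjusted by Benjamini-Hochberg over all 17125 genes. DESeq2 1.42.0, other filters and scalings, thinning to the lowest depth, a replicate block, other gene lengths and leaving out each heart were the alternatives. CPM are TMM-scaled. Gene lengths and coordinates are from GENCODE vM21 and promoters from RefSeq, both on GRCm38. Steps were tested on simulated data. The members had 1215 to 23690 counts per heart, and the biological coefficient of variation over all genes was 0.153.

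The members and gene lists were chosen with earlier results of these data known. Named genes were the members, the 2 highest and 2 lowest log2 fold changes of each related list (all genes of a list of 5), and the 5 genes most like the members within groups. Of these, 1 gene is not reported here. The study's methods state that littermates served as controls and that mutants came from several litters, but the labels do not tie the sequenced hearts to litters. Every pair of libraries differed beyond sampling noise (chi-square per degree of freedom at least 20.8).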

Additional observations from a re-analysis of the deposited data

How the results depend on the processing

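The number of genes called by edgeR, 0 with all 6 hearts, was 982 with DESeq2 (441 higher and 541 lower) and 603 with all genes that had at least 1 count, and in each of these 1 member, Ncapd2, was called. Leaving out 1 heart gave 0 to 751 calls, the 751 being reached without control replicate 1, while 3 genes were called when control replicate 2 was dropped. The labels give both groups replicate numbers 1 to 3, but the deviations of same-numbered hearts correlated at only 0.024, -0.084 and -0.073, so the numbers were not taken to pair them. With a replicate block 14 genes were called, 1 higher and 13 lower, and 0 members. The median log2 fold change of condensin II ranged from 0.059 to 0.186 when 1 heart was left out, and that of the SMC core from 0.005 to 0.135.

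The log2 level of Ncapg over Ncapg2 was 0.298 per exonic length, 0.043 by the longest transcript (adjusted p = 0.438 in the exact permutation test) and -0.013 by coding length (adjusted p = 0.875 in the exact permutation test), with 3 of 6 hearts positive in both. With 5 hearts the exact test cannot go below 0.0625, so leaving out 1 heart ends every level call by construction, while the values ranged from 0.327 to 0.374 for condensin I over condensin II, 1.961 to 2.081 for Ncapd2 over Ncapd3, 0.269 to 0.323 for Ncapg over Ncapg2, -1.297 to -1.246 for Ncaph over Ncaph2 and 0.994 to 1.063 for Smc4 over Smc2. The 96 alternative values of single members, under 12 settings, moved by more than 1 SD in 0 cases. With 3 hearts per group, leaving out 1 heart can hardly shift a value that far, so nothing is read from this count. Ncapd2 ranged from 0.351 to 0.534 and Ncaph2 from 0.17 to 0.257, while Smc4 (-0.09 to 0.1), Ncapg (-0.009 to 0.102) and Ncapd3 (-0.038 to 0.021) crossed 0 when 1 heart was left out. Each member had at least 1215 counts in every heart, the fewest being those of Ncapd3, for which counting error weighs most.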
